A study of Mus musculus with 12 samples.

Results

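The 6 genes whose proteins belong to the subcortical maternal complex of the mouse egg and early embryo were followed in 12 total RNA libraries of early embryos. They were taken by symbol, Nlrp5, Nlrp2, Ooep, Tle6, Padi6 and Zbed3, and all 6 were found among the 23284 genes of the 2 count tables, 1 table per stage. C57BL/6J zygotes, from superovulated females aged 5 to 8 weeks and males aged 2 to 6 months, had been microinjected with 0.75 mM of an antisense oligonucleotide (ASO). The ASO was directed against LINE1, an abundant retrotransposon, or was a control that the labels call RC without saying what the letters stand for. Both kinds were sampled at early 2C, some 33 h past the human chorionic gonadotropin (hCG) injection and 9 h past that of the ASO, or at 4C after 2 days of culture. The 4 groups, early 2C RC, early 2C LINE1 ASO, 4C RC and 4C LINE1 ASO, held 3 libraries each. All were injected embryos, and embryos that were not injected were not analysed here.

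The subcortical maternal complex is a large protein assembly that the growing oocyte builds and that lies beneath the cell membrane of the egg. Its genes are transcribed in the oocyte, and much of their RNA is cleared after fertilization as the embryonic genome is switched on, while the proteins persist through cleavage. Mouse embryos from mothers that lack Nlrp5, Ooep, Tle6 or Padi6 arrest in early cleavage, which made these genes textbook examples of maternal-effect genes.

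Library totals ranged from 19160716 to 51854939 counts, and replicates differed by more than counting error (chi-square over degrees of freedom, 14.7 to 86.8). Nothing in the labels ties a replicate to its own embryo pool or animals, so the spread behind each p-value is that of libraries and may be technical. Each value is relative to the other RNA of its library, as the labels mention no spike-in. In such bulk samples fewer cells with an RNA and less of it per cell cannot be told apart. The labels do not say whether the stages were prepared as separate batches, and stage and such a batch cannot be told apart. Egg and early embryo markers were present in every library, at a summed 3810 to 4420 CPM (a gene's counts scaled to a common library total, with TMM factors) in early 2C RC and 1458 to 1944 CPM in 4C RC. The 8 sperm markers summed to at most 5.08 CPM in any library.

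At early 2C Zbed3 RNA was by far the most abundant of the 6, Nlrp5, Padi6, Ooep and Tle6 were also among the abundant RNAs, and Nlrp2 lay far below. In RC embryos Zbed3, which encodes a zinc-finger protein of the complex also known to bind Axin in Wnt signalling, stood at 8201 ± 372.6 CPM per kb of exon (SD, n = 3). That level ranked 2 among 22825 genes with a known length, and Zbed3 alone took 1.46% to 1.64% of all counts. Nlrp5 followed at 220.2 ± 2.25 CPM per kb, Padi6 at 219.1 ± 22.4 and Ooep at 204.4 ± 20.2. Libraries of these 3 genes overlapped, so their order is not resolved. Tle6 stood below them at 146.2 ± 20.1 CPM per kb, and Nlrp2 stood at 16.2 ± 2.40. Among the 22825 genes these levels ranked 169 for Nlrp5, 171 for Padi6, 188 for Ooep, 324 for Tle6 and 3578 for Nlrp2. In early 2C LINE1 ASO embryos the levels per kb were 8592 for Zbed3, 216.0 for Padi6, 194.9 for Nlrp5, 191.7 for Ooep, 101.1 for Tle6 and 17.2 for Nlrp2.

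The start regions of 4 members are shown because these genes span the range of change between the stages described next: Zbed3 and Nlrp5 fell more than Padi6 and Nlrp2. Each run is the 250 bases before the annotated start, 5′ to 3′, from RefSeq on GRCm38.p6, and capitals mark every CANNTG, the core of the E-box that the oocyte factor Figla and other bHLH proteins can bind. Both strands read the same for this motif, and neighbouring matches may overlap. The regions are chr13:95323355-95323604 on the plus strand for Zbed3, the most upstream of its annotated starts, and chr7:23385639-23385888 on the plus strand for Nlrp5, likewise the most upstream. They are chr4:140742644-140742893 on the minus strand for Padi6 and chr7:5351036-5351285 on the minus strand for Nlrp2.
Zbed3: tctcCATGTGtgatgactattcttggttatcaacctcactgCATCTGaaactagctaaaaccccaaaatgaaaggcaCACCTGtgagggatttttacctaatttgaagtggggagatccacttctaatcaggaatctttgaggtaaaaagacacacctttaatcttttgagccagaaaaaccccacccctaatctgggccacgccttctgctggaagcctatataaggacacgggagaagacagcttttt
Nlrp5: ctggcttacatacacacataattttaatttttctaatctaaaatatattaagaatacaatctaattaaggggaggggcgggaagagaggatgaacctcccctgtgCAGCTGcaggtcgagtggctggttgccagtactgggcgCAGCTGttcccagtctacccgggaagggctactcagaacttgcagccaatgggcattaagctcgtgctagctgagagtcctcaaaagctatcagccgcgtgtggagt
Padi6: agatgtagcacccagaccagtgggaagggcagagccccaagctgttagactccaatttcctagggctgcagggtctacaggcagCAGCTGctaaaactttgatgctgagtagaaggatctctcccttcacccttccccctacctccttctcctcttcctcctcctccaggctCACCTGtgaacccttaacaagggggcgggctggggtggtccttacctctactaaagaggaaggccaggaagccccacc
Nlrp2: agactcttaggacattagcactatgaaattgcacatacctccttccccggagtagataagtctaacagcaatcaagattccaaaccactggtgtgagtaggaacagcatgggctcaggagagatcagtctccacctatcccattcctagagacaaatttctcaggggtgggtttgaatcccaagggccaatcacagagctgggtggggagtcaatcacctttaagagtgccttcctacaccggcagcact
The motif occurs 3 times before Zbed3, 2 times before Nlrp5, 2 times before Padi6 and 0 times before Nlrp2. Of the members not shown, Ooep, which fell more than Nlrp5, has 1 copy. Tle6 has 2 copies at its most upstream start and 4 at its other start. The further annotated starts of Zbed3 have 1 copy each, and that of Nlrp5 has 2. A link between the motif and the fall was not tested. Of 32851 RefSeq start regions of this length, 66.2% hold at least 1 copy. The form CAGGTG, read on either strand, occurs before Zbed3 and before Padi6 and is held by 17.2% of all such regions. These matches describe the letters of the windows only.

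Between early 2C and 4C all 6 members fell in RC embryos, by 6.16-fold for Nlrp2 to 155-fold for Zbed3 (edgeR quasi-likelihood F-test with Benjamini-Hochberg adjustment over 15760 genes). Of all genes tested, 36.6% were called lower, so a fall as such was common between these stages. Together the members took 1.66% to 1.85% of the counts in early 2C RC libraries and 0.0216% to 0.0329% in 4C RC libraries. The 2 stages did not overlap for any of the 6 members in either ASO group, and 38.7% of all genes did not overlap and were lower at 4C in RC embryos.

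**Figure D1:**
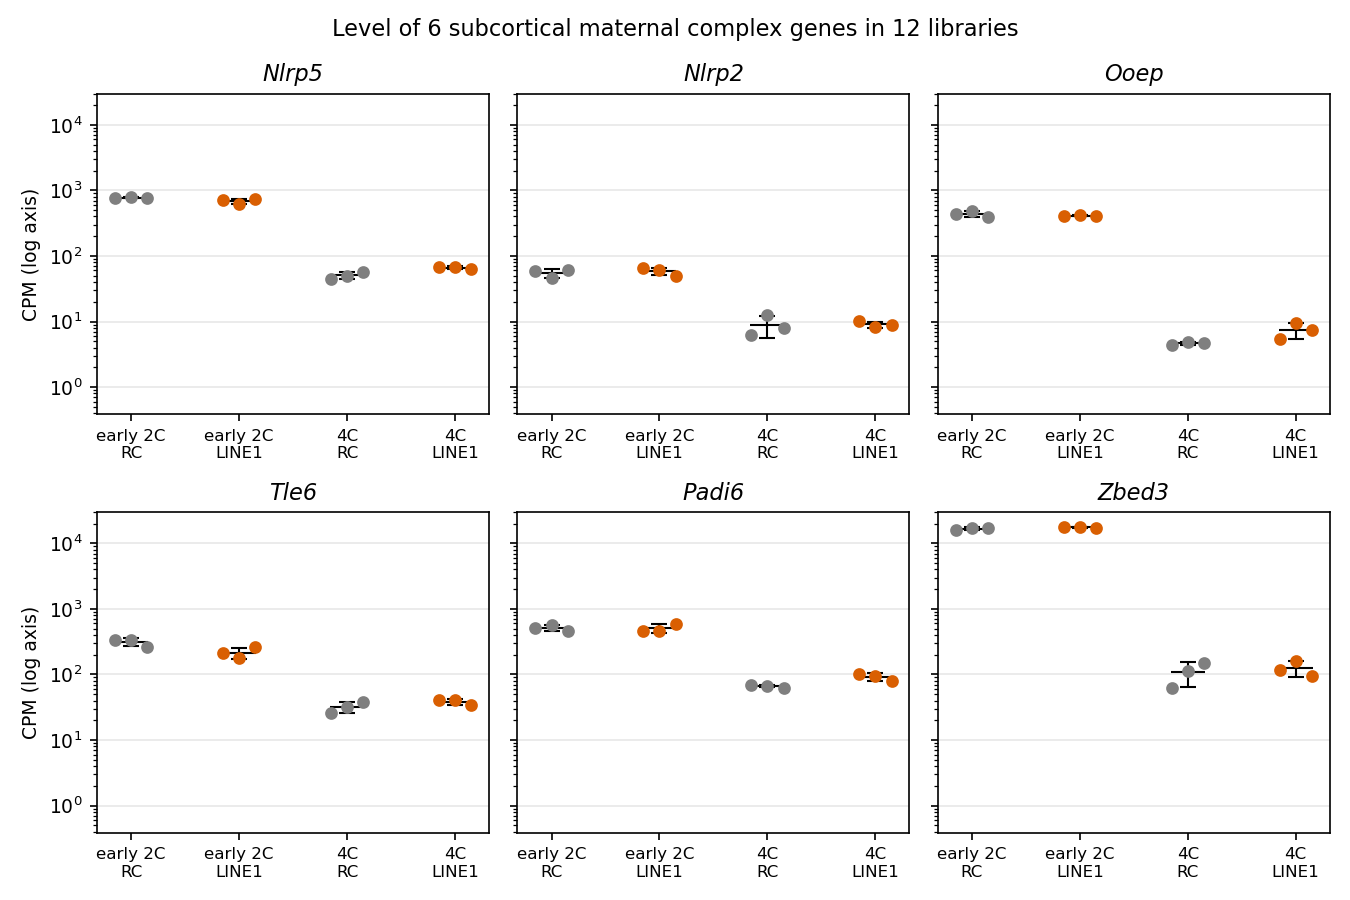
Level of each member in CPM (log axis) in the 12 libraries, by stage and ASO; points are libraries, and bars are the mean and SD of 3. Every 4C library lies below every early 2C library in each panel, and Zbed3 has the highest early 2C values, at 15954 to 17983 CPM.

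Nlrp5 encodes an NLR-family protein, also called MATER, a core member of the complex. It had 767, 782 and 776 CPM in the early 2C RC libraries and 45.0, 50.2 and 57.0 CPM at 4C. The early 2C values lay within a narrow band and far above all 4C values. Nlrp5 fell by 3.93 on the log2 scale (SE 0.14; adjusted p = 4.48e-12, edgeR), or 15.3-fold, leaving 6.55% of its early 2C level at 4C. Separately, 6.55% of its 50-base stretches also occur in other annotated genes, among them a pseudogene of Nlrp5, so some reads may have been split or lost.

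Nlrp2, another NLR gene of the complex, was the member with the fewest counts at early 2C. Its values were 58.2, 45.7 and 61.1 CPM at early 2C and 6.15, 12.7 and 7.93 CPM at 4C in RC embryos. The stages were well separated although the 4C libraries spread widely, with replicate 2 the highest. Nlrp2 fell by 2.62 (SE 0.26; adjusted p = 2.13e-07, edgeR), leaving 16.2%.

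Ooep encodes a KH-domain protein, also called FLOPED, and was the member with the lowest level at 4C in RC embryos. It stood at 440.1, 479 and 392 CPM in the early 2C RC libraries and at 4.38, 4.94 and 4.67 CPM in the 4C RC libraries, the latter resting on 94, 105 and 116 counts. The 4C values were low and close to each other. Ooep fell by 6.55 (SE 0.21; adjusted p = 2.16e-12, edgeR), or 93.6-fold, leaving 1.07%.

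Tle6 encodes a WD-repeat protein of the Groucho family that binds Ooep and Nlrp5 in the complex. It had 339, 335 and 263 CPM at early 2C and 25.7, 32.1 and 37.9 CPM at 4C in RC embryos. Early 2C replicate 3 was the lowest of its group, and still far above 4C. Tle6 fell by 3.29 (SE 0.20; adjusted p = 5.65e-10, edgeR), leaving 10.2%.

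Padi6 belongs to the peptidylarginine deiminases and is needed for the cytoplasmic lattices of the oocyte. Its level was 509, 564 and 459.9 CPM at early 2C and 68.8, 67.6 and 62.9 CPM at 4C in RC embryos. The 4C libraries agreed closely, with an SD of 3.08 CPM. Padi6 fell by 2.94 (SE 0.16; adjusted p = 1.65e-10, edgeR), or 7.70-fold, leaving 13.0%.

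Zbed3 showed the largest change of the 6. It had 15954, 17303 and 17252 CPM at early 2C and 61.8, 114 and 150.5 CPM at 4C in RC embryos. The early 2C libraries lay close together, while the 4C libraries spread by more than their lowest value. Zbed3 fell by 7.28 (SE 0.32; adjusted p = 2.02e-11, edgeR), leaving 0.645%. Per kb it was still the most abundant member at 4C in RC embryos, at 52.9 ± 21.7 CPM per kb, ahead of Padi6 at 28.5 ± 1.32 with no overlap of libraries. Tle6 (14.9 ± 2.86) and Nlrp5 (14.4 ± 1.71) overlapped below them, and so did Nlrp2 (2.62 ± 0.996) and Ooep (2.18 ± 0.132) at the bottom.

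In LINE1 ASO embryos all 6 members also fell between the stages, where 34.2% of genes were called lower and 38% did not overlap and were lower. The log2 changes were -3.38 (SE 0.14) for Nlrp5, -2.70 (SE 0.26) for Nlrp2, -5.77 (SE 0.20) for Ooep, -2.49 (SE 0.19) for Tle6, -2.46 (SE 0.15) for Padi6 and -7.14 (SE 0.31) for Zbed3. The adjusted p (edgeR) was at most 1.7e-07. The share of the early 2C level left at 4C was 9.63% for Nlrp5, 15.4% for Nlrp2, 1.82% for Ooep, 17.9% for Tle6, 18.2% for Padi6 and 0.709% for Zbed3. Each of these 12 falls, in RC and in LINE1 ASO embryos, was called in all 22 alternative fits. The cumulus and granulosa marker Cyp19a1 (aromatase) also differed by stage, with 20.5 to 27.5 CPM in the early 2C libraries and at most 1.37 CPM at 4C. Of 8 genes of its list tested, 2 were called lower and 1 higher in RC embryos, beside 36.6% and 36.1% of all genes. In LINE1 ASO embryos 3 were called lower and 2 higher, beside 34.2% and 37.6%. Star, at a mean of 0.756 CPM over the 12 libraries, did not pass in RC embryos (log2 1.21, adjusted p = 0.41, edgeR). The 12 markers of that list summed to 24.9 to 32.4 CPM at early 2C. At 4C they summed to 102 to 427 CPM, nearly all of it Gja1, which cleavage embryos also express, and Fshr, named after its values were seen, was at 0 in both 4C groups. Their part in the stage differences was not tested.

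**Figure D2:**
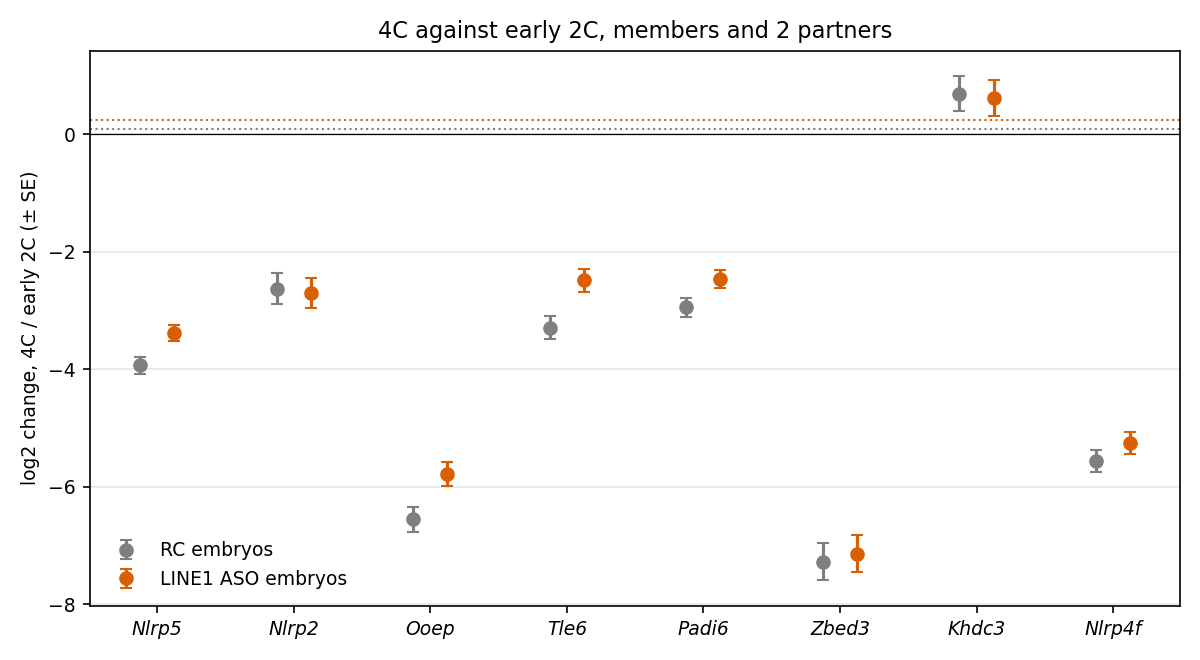
Log2 change from early 2C to 4C (± SE, edgeR) for the 6 members and the partners Khdc3 and Nlrp4f, in RC and in LINE1 ASO embryos; dotted lines are the medians of all 15760 genes tested, 0.09 in RC and 0.24 in LINE1 ASO embryos. Zbed3 and Ooep lie lowest, and of the genes shown Khdc3 alone lies above 0.

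The members did not fall in proportion. Log2 ratios of 2 members within the same library need no scaling between libraries, and they were compared between the 6 early 2C and the 6 4C libraries for all 15 pairs. For 12 pairs the ratio changed. An exact 2-sided permutation test gave p = 0.00216 for each, the smallest it can give, and 0.00271 after adjustment over the 15 pairs. Pairs of other genes were not tested, so how common such a change is over all genes is not known. In RC embryos 36.6% of all genes were called lower at 4C and 36.1% higher (edgeR). Relative to Nlrp2, Zbed3 fell by 4.59, Ooep by 3.49 and Nlrp5 by 0.97 on the log2 scale. Ooep fell by 2.52 relative to Nlrp5 and rose by 1.09 relative to Zbed3. The 3 pairs that did not pass were those among Tle6, Padi6 and Nlrp2, with changes of -0.19 for Tle6 to Padi6 (p = 0.271, exact permutation test), -0.20 for Tle6 to Nlrp2 (p = 0.444, exact permutation test) and -0.01 for Padi6 to Nlrp2 (p = 0.955, exact permutation test). Zbed3 thus lost most, then Ooep, then Nlrp5, and Tle6, Padi6 and Nlrp2 were not separated. In RC embryos alone and in LINE1 ASO embryos alone, all 12 ratios kept their direction with no overlap between stages. There 3 against 3 libraries cannot give p below 0.1.

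**Figure D3:**
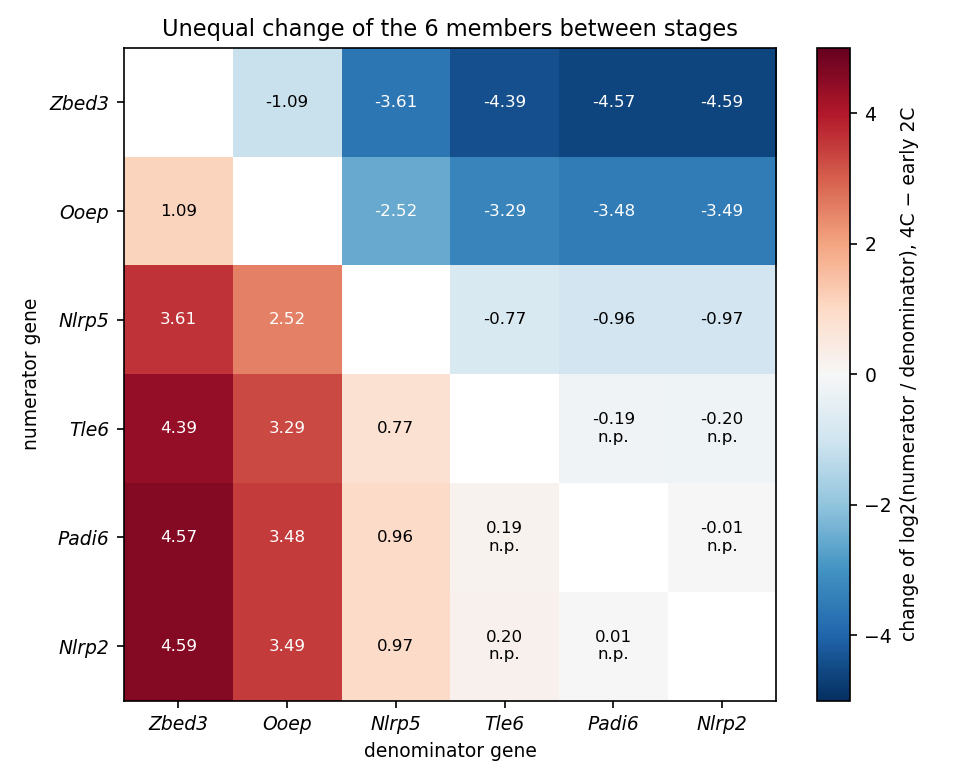
Change from early 2C to 4C of the log2 ratio of each numerator gene (rows) to each denominator gene (columns), over 6 libraries per stage; n.p. marks pairs that did not pass the exact permutation test adjusted over 15 pairs. Zbed3 and Ooep lost ground to every gene to their right, and the 3 pairs among Tle6, Padi6 and Nlrp2 lie nearest to 0, at -0.20 to -0.01.

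At early 2C, 9 h after injection, the LINE1 ASO comparison called 0 of the 6 members by edgeR, against 0.367% of 13625 genes tested; 1 member had an unadjusted p under 0.05, as did 8.84% of genes. That member was Tle6, with 339, 335 and 263 CPM in RC and 210.3, 177 and 259.9 CPM in LINE1 ASO embryos. The groups did not overlap, but RC replicate 3 and LINE1 ASO replicate 3 differed by little. Tle6 was lower by 0.54 on the log2 scale (SE 0.13; adjusted p = 0.087, edgeR). It passed with DESeq2 (log2 -0.53, adjusted p = 0.00963), which called 1 of the 6 members, and with no filter on low counts. DESeq2 called 99 genes higher and 63 lower of 8027, and the fit with no filter 99 higher and 108 lower of 19187. Tle6 also passed without RC replicate 3 (log2 -0.65, adjusted p = 0.0408, edgeR) and without LINE1 ASO replicate 3 (log2 -0.69, adjusted p = 0.00721, edgeR). The first of these fits called 19 genes higher and 17 lower of 14164, the second 45 higher and 65 lower of 14237. In all Tle6 passed in 4 of 15 alternatives, with adjusted p from 6.22e-05 to 0.777 over the 15 (edgeR or DESeq2). Its difference was smallest without LINE1 ASO replicate 2, at -0.41.

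Nlrp5 was the other member whose early 2C groups did not overlap; 6.41% of genes did not overlap and were lower with the LINE1 ASO. It had 707, 615 and 736 CPM with the LINE1 ASO, all below the 767 to 782 CPM of RC (log2 -0.18, SE 0.09; adjusted p = 0.568, edgeR). The remaining members lay within 0.10 of 0 and overlapped between groups. Ooep stood at 403, 414 and 413 CPM (log2 -0.10, SE 0.09), Padi6 at 463, 456 and 593 CPM (-0.03, SE 0.11), Zbed3 at 17983, 17718 and 17215 CPM (0.06, SE 0.08) and Nlrp2 at 65.0, 60.6 and 49.8 CPM (0.08, SE 0.14).

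At 4C the LINE1 ASO comparison again called 0 of 6 members by edgeR and 0 by DESeq2, against 4.53% of 14231 genes by edgeR. At an unadjusted p under 0.05 there was 1 member, Padi6, where 22.2% of genes stood. Padi6 had 101, 95.6 and 78.5 CPM in LINE1 ASO embryos, all above the 62.9 to 68.8 CPM of RC (log2 0.40, SE 0.18; adjusted p = 0.214, edgeR). Nlrp5, at 67.7, 68.2 and 62.3 CPM, and Ooep, at 5.43, 9.55 and 7.45 CPM, likewise lay above all RC libraries. No overlap with the LINE1 ASO group higher was found for 15.7% of genes. The log2 difference was 0.32 for Nlrp5 (SE 0.18; adjusted p = 0.331, edgeR) and 0.62 for Ooep (SE 0.40; adjusted p = 0.389, edgeR). Ooep passed only where the 4C contrast was taken from the fit of all 12 libraries (log2 0.68, adjusted p = 0.0278, edgeR). In that fit all 4 groups share 1 estimate of the spread, and 1099 genes were called higher and 615 lower of 15760.

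The other 3 members overlapped between the 4C groups. Tle6 had 40.3, 41.3 and 34.1 CPM with the LINE1 ASO (log2 0.21, SE 0.22), Zbed3 118, 162 and 95.3 CPM (0.15, SE 0.27) and Nlrp2 10.05, 8.17 and 8.79 CPM (-0.05, SE 0.37). The median log2 difference of the 6 members was 0.27, beside 0.05 over all genes. Scaling by library totals shifted all genes by 0.18 in this comparison, so directions at 4C are relative to the TMM scale. The RC libraries here also serve the stage comparison, so the differences at 4C and the falls between stages are not independent.

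**Figure D4:**
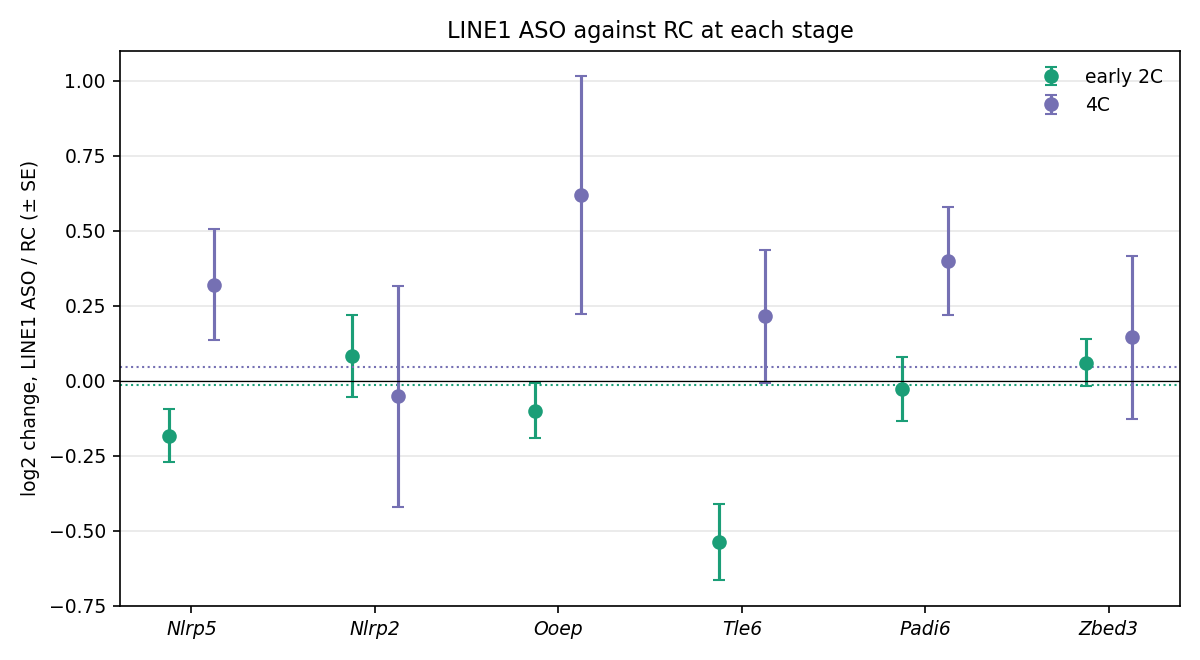
Log2 difference between LINE1 ASO and RC embryos (± SE, edgeR) for each member at early 2C and at 4C; dotted lines are the medians of all genes tested, -0.01 at early 2C and 0.05 at 4C. Tle6 lies lowest at early 2C, at -0.54, and 5 of the 6 members lie above 0 at 4C, where the SE are larger.

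The stage by ASO interaction asked whether the fall from early 2C to 4C differed between LINE1 ASO and RC embryos. EdgeR and DESeq2 called 0 of 6 members each, against 1.12% of 15760 genes by edgeR, and 4 members had an unadjusted p under 0.05, as did 17.5% of genes. These 4 were Tle6 (0.80, SE 0.26; adjusted p = 0.126, edgeR), Ooep (0.78, SE 0.24; adjusted p = 0.125, edgeR), Nlrp5 (0.56, SE 0.18; adjusted p = 0.129, edgeR) and Padi6 (0.49, SE 0.21; adjusted p = 0.237, edgeR). A positive value is a smaller fall with the LINE1 ASO. Zbed3 (0.14, SE 0.34) and Nlrp2 (-0.07, SE 0.35) lay near 0. The members' median was 0.52 and the median of all genes was 0.19. The latter was 0.33 with library totals, 0.10 with DESeq2 size factors and between -0.03 and 0.05 in the fits without 1 of the 6 early 2C libraries. Without 4C LINE1 ASO replicate 3, Nlrp5 (log2 0.60, adjusted p = 0.0483, edgeR) and Tle6 (log2 0.89, adjusted p = 0.0435, edgeR) passed, each in 1 of 20 alternatives. That fit called an interaction for many more genes, 767 higher and 530 lower of 16347. Without early 2C LINE1 ASO replicate 2 the interaction was smaller, at 0.29 for Nlrp5, 0.49 for Tle6 and 0.22 for Padi6. Dux, a transcription factor of the 2-cell stage, had 1.27 CPM in 4C LINE1 ASO replicate 3, 43.0 and 45.8 CPM in replicates 1 and 2 and at most 0.792 CPM in RC; its part in these values was not tested.

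Genes listed as partners mostly fell with the complex. The list holds known or described partners of the complex or of the cytoplasmic lattices, together with oocyte Nlrp4 paralogs. Of its 12 genes tested in RC embryos, 10 fell and 2 rose between early 2C and 4C. Over all genes, 36.6% were called lower and 36.1% higher. The median log2 change of the list was -2.76 beside 0.09 over all genes. The paralogs Nlrp4a (-4.38), Nlrp4b (-5.09) and Nlrp4e (-3.29) were among those that fell. Nlrp4f, an NLR gene of the oocyte whose protein joins the complex, stood at 2271 ± 132 CPM at early 2C and 48.04 ± 9.18 CPM at 4C (SD, n = 3), a log2 change of -5.56 (SE 0.19; adjusted p = 2.39e-12, edgeR). Skp1a, of a ubiquitin ligase, fell by 2.87 and the 14-3-3 gene Ywhaz by 2.64. The 2 that rose, named after their values were seen, were the importin gene Kpna6 (log2 0.85, SE 0.17; adjusted p = 0.000239, edgeR) and Khdc3. In LINE1 ASO embryos 10 of the 12 fell and 0 rose, where 34.2% of all genes were called lower and 37.6% higher. DESeq2 called 10 lower and 0 higher, beside 5830 lower and 6007 higher of 17922 genes in all. An unadjusted p under 0.05 was also found for 10, so it added no partner to the edgeR calls.

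Khdc3, also called FILIA, encodes a KH-domain protein known to bind Nlrp5 in the complex, and is listed in the tables under an older clone name. It did not fall. It had 19.4, 28.5 and 22.6 CPM at early 2C and 47.6, 29.4 and 36.8 CPM at 4C in RC embryos, where every 4C library lay above every early 2C library (log2 0.69, SE 0.30; adjusted p = 0.0499, edgeR). In LINE1 ASO embryos the libraries overlapped, at 17.6, 18.7 and 22.0 CPM and at 31.4, 16.2 and 41.9 CPM (log2 0.62, SE 0.30; adjusted p = 0.077, edgeR). The RC call was lost in 10 of 22 alternatives, 8 of them fits without 1 library. Of its 50-base stretches 34.1% occur in Gm20509, an annotated gene that overlaps it on the same strand, so its level is uncertain.

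Oocyte NLR genes outside the complex fell as well: 5 of 6 tested fell and 0 rose in RC embryos, with a median of -4.81. For this and the following lists, the shares over all genes were 36.6% called lower and 36.1% called higher. Nlrp14 fell from a mean of 848.3 to 69.8 CPM (log2 -3.60), Nlrp4g by 5.44 and Nlrp9b by 5.73. Relatives of the members from the same gene families but without a known place in the complex differed: 4 of 20 tested fell and 10 rose, with a median of 1.40. The KH-domain gene Khdc1b fell by 2.65, Khdc1a did not pass (log2 -0.07, SE 0.19) and the BED zinc-finger gene Zbed4 rose by 1.15 (SE 0.15; adjusted p = 4.85e-06, edgeR). Stored maternal transcripts in general fell in 29 of 33 cases and rose in 1, Ddx4, a germline RNA helicase named after its value was seen, with a median of -4.19 beside -3.61 for the 6 members. Among them Spin1 fell by 4.19, Bmp15, an oocyte growth factor, by 5.58 and E330034G19Rik by 5.98 on the log2 scale. Of 33 other maternal-effect genes, 18 fell and 11 rose, the latter close to the 36.1% over all genes. Zfp57, a guardian of imprints, was lower by 5.84 and the 5-methylcytosine dioxygenase Tet3 by 4.68. The chromatin remodeller Arid1a was among those that did not pass (log2 0.09, SE 0.22). Of 8 genes listed as oocyte transcription factors, though not all need be particular to the oocyte, 5 fell and 2 rose. Foxo3 fell by 2.43, and Taf4b and Gata4 rose by 2.42 and 1.70.

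**Figure D5:**
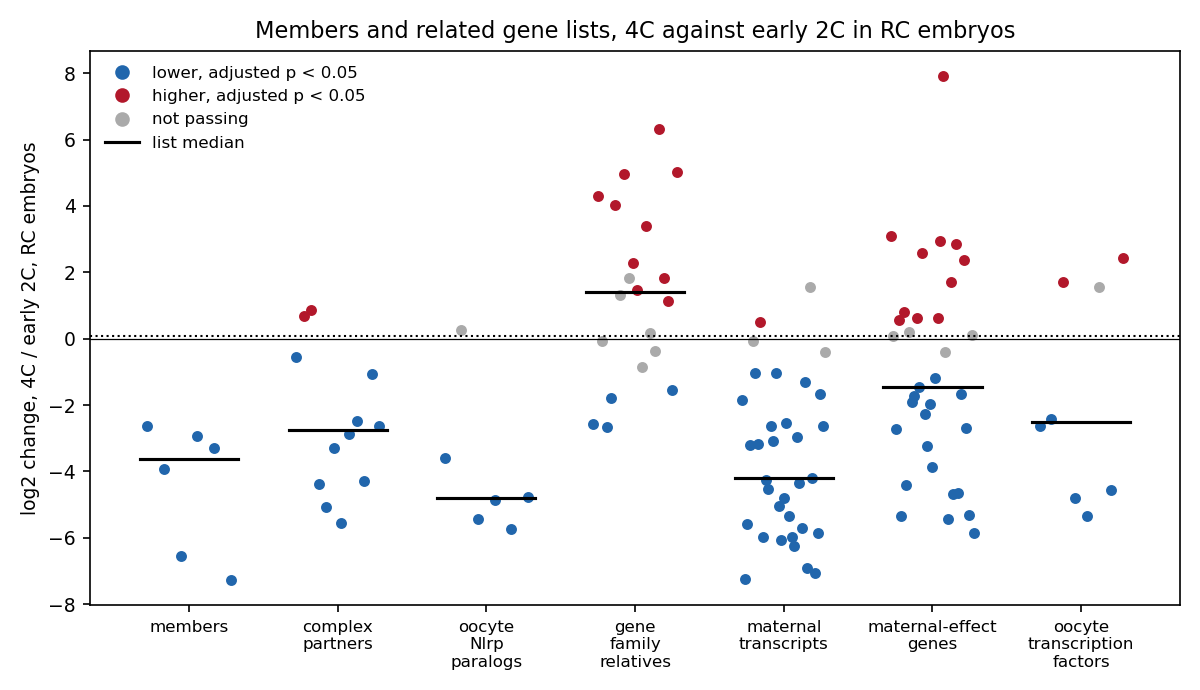
Log2 change from early 2C to 4C in RC embryos for the members and for each gene of 6 related lists (points, coloured by the edgeR call; black bars, list medians); the dotted line is the median of all genes tested, 0.09. Members, partners, oocyte Nlrp paralogs and maternal transcripts lie mostly below 0. Of the 20 family relatives tested 10 rose, where 36.1% of all genes were called higher.

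With the LINE1 ASO at early 2C, edgeR and DESeq2 called 0 genes in each of these 6 lists. At an unadjusted p under 0.05, which 8.84% of all genes had, there were 3 of 12 partners, 3 of 19 family relatives, 1 of 6 oocyte Nlrp paralogs, 3 of 32 maternal-effect genes, 7 of 33 maternal transcripts and 1 of 8 oocyte transcription factors. At 4C, 3 maternal-effect genes were higher and 1 lower, 1 maternal transcript was higher and 1 oocyte transcription factor was lower (edgeR), where 1.93% of all genes were called higher and 2.61% lower. Zfp57 (log2 1.09, SE 0.19, adjusted p = 0.0172, edgeR) and Tet3 (0.85, SE 0.19, adjusted p = 0.0279, edgeR) were higher than in RC embryos. Arid1a was lower by 1.45 (SE 0.27, adjusted p = 0.0182, edgeR). The third maternal-effect gene that was higher was the histone demethylase gene Kdm1b (0.88, SE 0.21, adjusted p = 0.0384, edgeR). The maternal transcript was Oosp1 (1.49, SE 0.39), just under the threshold (adjusted p = 0.0475, edgeR). The transcription factor was Taf4b (-1.09, SE 0.24, adjusted p = 0.028, edgeR). Kdm1b and Oosp1 were named after their values were seen. Of the fits without 1 of the 6 libraries, Zfp57 passed in 2, and Tet3, Arid1a and Taf4b passed only without LINE1 ASO replicate 3. EdgeR called 0 of 12 partners, 0 of 20 family relatives and 0 of 6 oocyte Nlrp paralogs at 4C. DESeq2 called 1, 2 and 0 of them, beside 1476 of 15885 genes in all, and an unadjusted p under 0.05 was found for 2, 6 and 1, beside 22.2% of all genes.

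The genes whose pattern lay nearest to the members were found by the root mean square difference, over the 12 libraries, of log2 CPM centred on each gene's own mean, among 7938 genes with a mean of at least 10 CPM. To the mean profile of the 6 members the nearest were Fbxw24 (0.121), Osbpl10 (0.136), Phf15 (0.142), Pik3cd (0.147) and Zfp92 (0.149). Fbxw24 had 653 CPM in early 2C RC and 28.04 CPM in 4C RC. The nearest to single members were Fbxw15 (0.131) and Mff (0.155) for Nlrp5, Gzf1 (0.145) and Cenpf (0.172) for Nlrp2, and Kpna7 (0.227) and Epsti1 (0.230) for Ooep. A near pattern for Tle6 was Fbxw26 (0.202), and the nearest were, for Padi6, Txndc5 (0.110) and Cox10 (0.134), and for Zbed3 Bcl2l10 (0.286) and Rfpl4 (0.314). Among the members themselves Tle6 and Padi6 were closest (0.263), and Zbed3 and Nlrp2 farthest apart (2.35). These values describe likeness in 12 libraries that share 2 stages, and the difference between stages makes up most of each profile.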

How the data were processed

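The deposited values are raw counts of reads per gene, in 1 table per stage with 1 column per library; the authors' libraries came from 500 pg of RNA with a stranded total RNA kit, per the labels' protocols. DESeq2 1.12.3, R 3.3.0, TopHat2 2.0.9, Trim Galore 0.4.0 and the build mm9 are listed in the submitters' processing notes with no roles. Which annotation and strand setting the counting used is not stated in the labels or headers. These counts went into edgeR 4.0.16 (R 4.3.3) with filterByExpr, which all 6 members passed, TMM scaling and the robust quasi-likelihood F-test; p-values were Benjamini-Hochberg adjusted across the genes tested, with a threshold of 0.05. Comparisons between ASOs used the 6 libraries of a stage; stage contrasts and the interaction used all 12. CPM were scaled by TMM over the 12 libraries, and exon lengths come from GENCODE on GRCm38 for 22825 genes. The smallest member count in a library was 94. Pair ratios used a pseudocount of 0.5 and SciPy 1.17.1. The gene tests were tested on simulated data. Alternatives were DESeq2 1.42.0, other scalings and low-count filters, a replicate block, a joint fit and leaving out each library. The members and lists were chosen with earlier results of these data known. Named genes were all members, Khdc3, Nlrp4f, the 3 most abundant genes of each pathway list, at most 3 of each marker list and the genes of nearest pattern, 1 of which is not reported here.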

Additional observations from a re-analysis of the deposited data

Results flagged for a closer look

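For 2 genes named beside the members, the difference between LINE1 ASO and RC embryos itself differed between the stages by the test of that difference. Zfp57 had a stage by ASO interaction of 1.32 on the log2 scale (SE 0.21; adjusted p = 0.0112, edgeR), with -0.18 at early 2C and 1.09 at 4C; it passed in 7 of the 12 fits without 1 library. Dux had an interaction of 5.85 (SE 1.18; adjusted p = 0.0386, edgeR) and passed in 2 of those 12 fits. Dux lies in a multi-copy array, so its counts are uncertain. The causes were not tested.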

How the results depend on the processing

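The falls of all 6 members between early 2C and 4C kept their call in every alternative fit in both ASO groups. For LINE1 ASO against RC at early 2C, the number of members called was 0, and 1 with DESeq2 and 1 with no low-count filter, Tle6 each time; fits without 1 library gave 0 to 1. At 4C it was 0, and 1, Ooep, in the joint fit of 12 libraries. For the interaction it was 0, and 0 to 2 without 1 library. The pair ratios passed for 12 pairs, and for 0 in RC embryos alone and 0 in LINE1 ASO embryos alone, where 3 against 3 libraries cannot pass. Taking the longest transcript as length, an alternative chosen after seeing the data, exchanged only Nlrp5 and Tle6 in the order at 4C with the LINE1 ASO. No called value reversed. Small differences of members that were not called did turn sign in some fits. Without 1 library they reached 0.05 for Padi6 and -0.03 for Nlrp2 at early 2C, -0.13 for Zbed3 and 0.31 for Nlrp2 at 4C, and -0.15 for Zbed3 and 0.26 for Nlrp2 in the interaction. Nlrp2 also turned with library totals, to 0.11 at 4C and 0.05 in the interaction.

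Counts over all genes moved more. At early 2C 50 genes were called, against 162 with DESeq2, 207 with no low-count filter, 80 with a replicate block, 2 in the joint fit and 5 to 110 without 1 library. At 4C it was 645, against 1476 with DESeq2, 1108 with no low-count filter, 1504 with a replicate block, 1714 in the joint fit and 4 to 2126 without 1 library, the 2126 without LINE1 ASO replicate 3. For the interaction it was 176, against 908 with DESeq2, 277 with library totals, 12 with a replicate block and 19 to 1297 without 1 library. Same-numbered RC and LINE1 ASO libraries correlated at -0.0889 to 0.0587 at early 2C and 0.0299 to 0.210 at 4C in their deviations. Libraries of different number correlated at -0.125 to 0.132 at early 2C and -0.220 to 0.0987 at 4C. These values do not settle whether the numbers pair the samples, above all at 4C. The replicate block left the members called at 0, 0, 6, 6 and 0. Library totals moved the share of calls that were higher from 42.5% to 70.2% at 4C, where the joint fit gave 64.1%, and from 58.0% to 80.9% for the interaction. The causes were not tested. Counts at 4C were lowest for Ooep, at 94 to 284 per library, and Nlrp2, at 132 to 272.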
